A study of Mus musculus with 15 samples.

Results

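The CpGs described here are those at which every read was methylated in every library of a mouse sperm methylation study. They were selected on the counts themselves: a CpG was taken when its methylated count equalled its total count in all 15 libraries. There were 854 such CpGs among 204492 listed positions, or 0.418%. Since those values chose the CpGs, their level of 100% and the absence of a diet difference at them are fixed by the choice and are given without a test.

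Sperm of C57BL/6 males, generation G1, was the source of DNA for all libraries, 8 labelled with a protein restricted diet and 7 with a control diet. The labels do not say whether the sampled mice or a parent ate the diet, nor which libraries share a litter or a batch. The assay was reduced representation bisulfite sequencing. Genomic DNA is cut at CCGG by MspI and short fragments are kept. Bisulfite then turns unmethylated cytosines into bases read as T, and methylated cytosines are still read as C. Nothing says that the libraries come from separate animals, and a p-value here judges a difference only against the spread among these libraries.

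In mammals most CpGs outside active promoters and CpG islands carry methylation on both strands. In the male germ line this pattern is laid down anew before birth by the methyltransferase Dnmt3a with its cofactor Dnmt3l. It is copied at each later cell division by Dnmt1, which Uhrf1 brings to half-methylated DNA. Mature sperm are known for high methylation of gene bodies, intergenic DNA and most repeats, beside unmethylated promoters of many genes. CpGs read as methylated in every molecule lie at the upper end of a broad class of highly methylated CpGs.

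Sums of read counts over the listed positions ran between 6650912 and 10712016 in protein restricted libraries and between 7846118 and 11841657 in control libraries. No library has fewer than 11 methylated reads at any listed position, so CpGs with little methylation are mostly not listed. None of the 105 pairs of libraries was identical. Imprinted loci, whose methylation in sperm is known, say little of the label here. No CpG was listed in the promoters of the 13 maternally imprinted genes that could be examined, but no more than 322 of all 32851 promoter windows held any listed CpG, so this checks nothing. Upstream of genes methylated on the paternal copy, 7 CpGs were listed, at Meg3 and Rasgrf1, with means of 97.99% over 3 CpGs and 92.5% over 4. None of these 7 was among the fully methylated CpGs, which says nothing of these loci, since only 0.418% of all listed CpGs were.

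Short stretches of promoter show what such a CpG looks like in sequence. Only 2 of the 854 CpGs lay in a RefSeq promoter window, from 250 bases before to 50 after a transcript start, and both are shown with a window of intermediate methylation for contrast. All sequences are from RefSeq on GRCm38.p6, the same assembly as mm10, written 5′ to 3′ along the gene. In the Gm39786 and Gm32840 windows the capitals mark the fully methylated CpG, and in the 4930478L05Rik window the 7 listed CpGs. The Gm39786 window (chr2:30995581-30995880, minus strand) and the Gm32840 window (chr15:97043890-97044189, plus strand) belong to predicted genes, and the third (chr16:78560066-78560365, plus strand) to 4930478L05Rik.
Gm39786: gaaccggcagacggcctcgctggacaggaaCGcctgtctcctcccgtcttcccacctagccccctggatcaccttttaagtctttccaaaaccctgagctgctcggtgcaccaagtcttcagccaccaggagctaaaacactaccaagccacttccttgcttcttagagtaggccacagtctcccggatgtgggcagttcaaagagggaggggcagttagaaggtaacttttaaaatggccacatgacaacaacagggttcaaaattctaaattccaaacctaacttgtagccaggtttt
Gm32840: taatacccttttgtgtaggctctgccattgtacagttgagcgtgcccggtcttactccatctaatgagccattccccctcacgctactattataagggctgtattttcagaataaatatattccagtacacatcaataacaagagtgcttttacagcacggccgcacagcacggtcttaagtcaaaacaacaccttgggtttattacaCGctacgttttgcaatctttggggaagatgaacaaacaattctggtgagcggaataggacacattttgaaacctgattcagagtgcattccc
4930478L05Rik: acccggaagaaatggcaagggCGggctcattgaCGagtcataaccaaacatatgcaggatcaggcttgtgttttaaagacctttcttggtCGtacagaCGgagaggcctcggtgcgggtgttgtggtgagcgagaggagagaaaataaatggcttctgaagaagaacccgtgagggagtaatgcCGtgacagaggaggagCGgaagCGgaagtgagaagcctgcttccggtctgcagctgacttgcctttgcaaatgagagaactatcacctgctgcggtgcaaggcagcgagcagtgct
The Gm39786 window holds 7 CpGs, of which 5 were listed, and the fully methylated one lies 219 bases before the transcript start. Its neighbours in the window averaged between 95.6% and 99.1%. The Gm32840 window holds 9 CpGs, of which 4 were listed, with neighbours between 97.6% and 99.2% and the fully methylated CpG 42 bases before the start. The contrast window holds 15 CpGs. It had the lowest mean level of 49 autosomal windows with at least 4 listed CpGs, none of them deeper than the deepest fully methylated CpG. Its 7 listed CpGs averaged 52.5% ± 7.25 in protein restricted libraries (SD, n = 8) and 52.8% ± 3.497 in control libraries (SD, n = 7). The windows with a fully methylated CpG are close in CpG content to the median of 7 CpGs over all 32851 windows of the table.

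A single fully methylated CpG lay in a microRNA hairpin, out of 11 listed CpGs in hairpins. It is the second base of the Mir30a hairpin (chr1:23272269-23272339, plus strand), which gives rise to miR-30a, a broadly expressed microRNA. The hairpin is printed as RNA, with the CpG in capitals. The CpG was covered by 12 to 33 reads in protein restricted libraries (median 22.5) and by 12 to 52 reads in control libraries (median 18).
Mir30a: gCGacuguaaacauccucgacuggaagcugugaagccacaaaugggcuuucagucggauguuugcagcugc

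The fully methylated CpGs were read at lower than usual depth, which bears on every comparison that follows. Their mean total count had a median of 22.9 reads per library, against 32.1 at the other listed CpGs. Summed over the 15 libraries a fully methylated CpG had between 221 and 773 reads (median 343). A count of 0 unmethylated reads allows an unmethylated share of up to 0.875% at the median depth, 1.36% at the shallowest CpG and 0.388% at the deepest, with 3 reads as the limit. These limits cover counting error only, since the counts do not tell copies of the same molecule apart. They also take no account of the CpGs having been chosen for that 0. All other listed CpGs are therefore compared after weighting them to the same 10 classes of mean total count, called depth-matched here.

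The deepest fully methylated CpGs carry the most reads behind the value of 100%. In Prdm1, which encodes a transcriptional repressor needed for the founding of the mouse germ line, the CpG at position 44502171 of chromosome 10 had 54, 71, 59, 47, 50, 30, 50 and 47 reads in the protein restricted libraries. It had 48, 68, 48, 71, 36, 40 and 54 reads in the control libraries. All 773 reads were methylated, and the read counts of the diets overlap. In Vipas39, which encodes a protein of vesicle trafficking, the CpG at 87254443 of chromosome 12 had 22 to 88 reads in protein restricted libraries (median 45) and 30 to 90 in control libraries (median 50).

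Behind these came CpGs in Tmcc3, with 31 to 73 reads in protein restricted and 31 to 83 in control libraries, and in Agap3, a GTPase-activating protein for Arf GTPases, with 28 to 72 reads in protein restricted and 34 to 57 in control libraries. Septin10, a cytoskeletal GTPase gene, and Lrrc9 followed with sums of 679 and 671 reads. The remaining 2 of the 8 deepest lay outside genes on chromosomes 14 and 4, with sums of 622 and 609 reads. At the shallow end, 2 CpGs outside genes on chromosome 6 (positions 140930135 and 140930245) had 221 reads each, one in Camk2d, a calcium-dependent kinase gene, had 228, and one in Fhl1 on the X chromosome, a LIM-domain protein gene, had 229.

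Just outside the rule stood 3174 CpGs with exactly 1 unmethylated read in all libraries together, and 7037 with exactly 2. The deepest with 1 was in Ryk, which encodes a receptor for Wnt proteins, where all but 1 of 874 reads were methylated. Its only unmethylated read was in protein restricted replicate 2, where the level was 98.99%. In Inpp5a, an inositol phosphatase gene, 1 of 786 reads was unmethylated, in control replicate 5. The 3174 CpGs with 1 unmethylated read had nearly the same depth as the fully methylated ones, with a median of 23.3 reads per library.

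**Figure D1:**
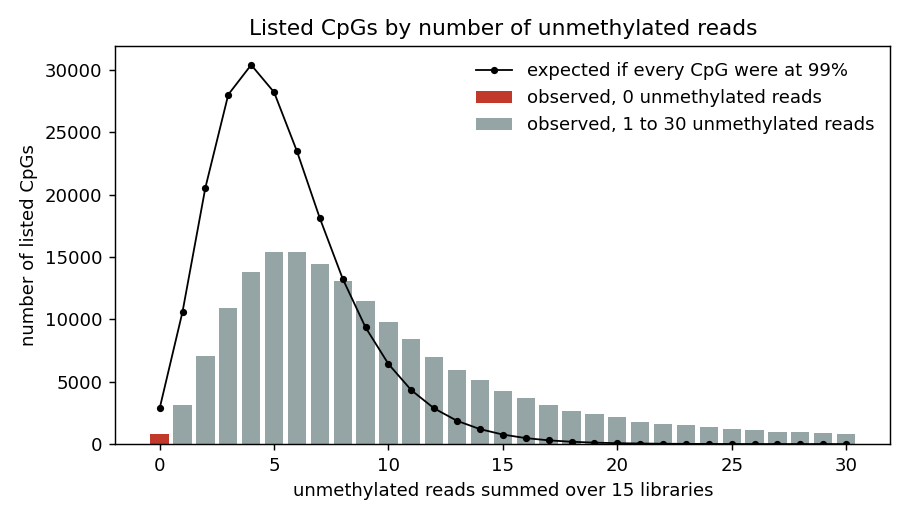
Bars give the number of listed CpGs with 0 to 30 unmethylated reads summed over the 15 libraries, with the fully methylated CpGs in red, and the line gives the number expected if every CpG were at 99%. The 854 CpGs at 0 lie at the low end of a single broad distribution, below the 2869 expected at 99%.

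The number of fully methylated CpGs was below what a level of 99% at every CpG would give at the deposited depths. That level gives 2869 CpGs with no unmethylated read, and 854 were observed, a ratio of 0.298 (exact Poisson 95% interval 0.278 to 0.318, counting error only). A level of 98% gives 90.3 and a level that leaves 0.5% of reads unmethylated gives 20192. The uniform level that would give 854 is 98.7%. The CpGs do not share 1 level, since 22% of the depth-matched other CpGs had a mean of at least 99% and 95.1% a mean of at least 90%. CpGs with 1 unmethylated read were 3.72 times as many as those with 0, where a 99% level gives 3.70, and those with 2 were 2.22 times as many as those with 1, where it gives 1.94.

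The number of CpGs that met the rule went down with depth. In the shallowest class, with 13.6 to 21.9 reads per library, 351 CpGs were fully methylated against 1049 expected at 99%. In the middle of the range, at 29.3 to 32.0 reads, 46 were, against 204 expected. At 45.0 to 53.7 reads there were 5 against 13.8, and in the deepest class 0 against 2.14. The ratio of observed to expected was between 0.335 and 0.135 in the 8 shallowest classes. It was 0.363 in the ninth, on 5 CpGs, with an interval of 0.118 to 0.847. The mean level of all CpGs also went down with depth, with 97.7% in the shallowest class and 89.4% in the deepest. Every listed CpG has at least 11 methylated reads in each library, so a shallow CpG of low level cannot be listed while a deep one can, and this trend is shaped by the list.

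**Figure D2:**
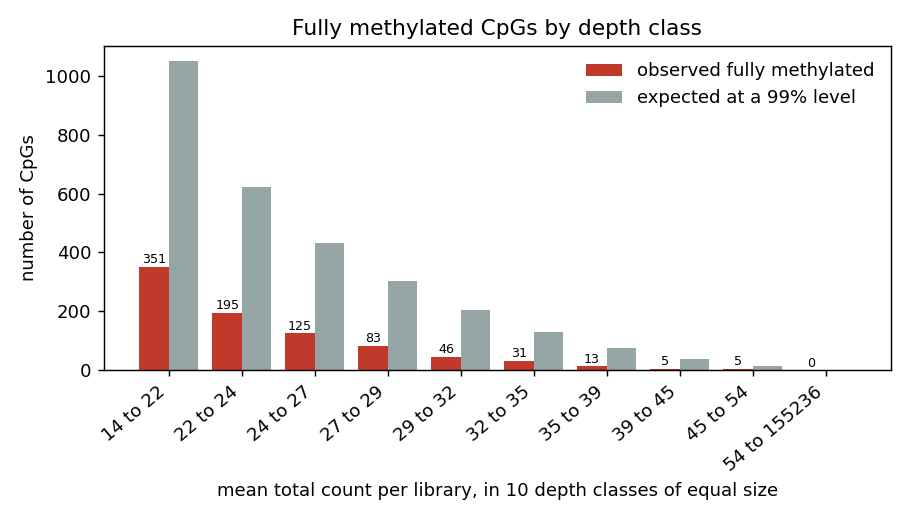
Pairs of bars give, for 10 classes of mean total count with about 20449 CpGs each, the observed number of fully methylated CpGs (red) and the number expected at a 99% level (grey). The observed number runs down from 351 in the shallowest class to 0 in the deepest and is below the expected number in every class.

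The level of such CpGs can be read without the choice fixing it by leaving a library out. For each library, the CpGs fully methylated in the other 14 libraries were taken, between 1066 and 1230 CpGs, and the unmethylated reads were counted in the library that had no part in the choice. The share of unmethylated reads was 1.08% ± 0.0535 in protein restricted libraries (SD, n = 8) and 1.13% ± 0.0701 in control libraries (SD, n = 7). Values ran from 1.005% to 1.16% in protein restricted and from 1.05% to 1.22% in control libraries, and the diets overlapped. The depth-matched other CpGs had 3.11% ± 0.101 unmethylated reads in protein restricted libraries (SD, n = 8) and 3.07% ± 0.108 in control libraries (SD, n = 7), and no library was below 2.91%.

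The protein restricted mean minus the control mean was -0.0491 points, with a 95% interval of -0.119 to 0.0208 points. By the exact two-sided permutation test over 6435 splits (p = 0.147) this was within the spread of the libraries. Adjusted over the 3 values compared between diets the p was 0.440 (exact permutation tests, Benjamini-Hochberg). The library left out had at least 1 unmethylated read at 20.0% to 25.7% of these CpGs when it was protein restricted, and at 19.9% to 30.6% when it was control. The highest share was in control replicate 4, the most deeply read library. The read counts do not tell an unmethylated copy from a base read wrongly as T.

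**Figure D3:**
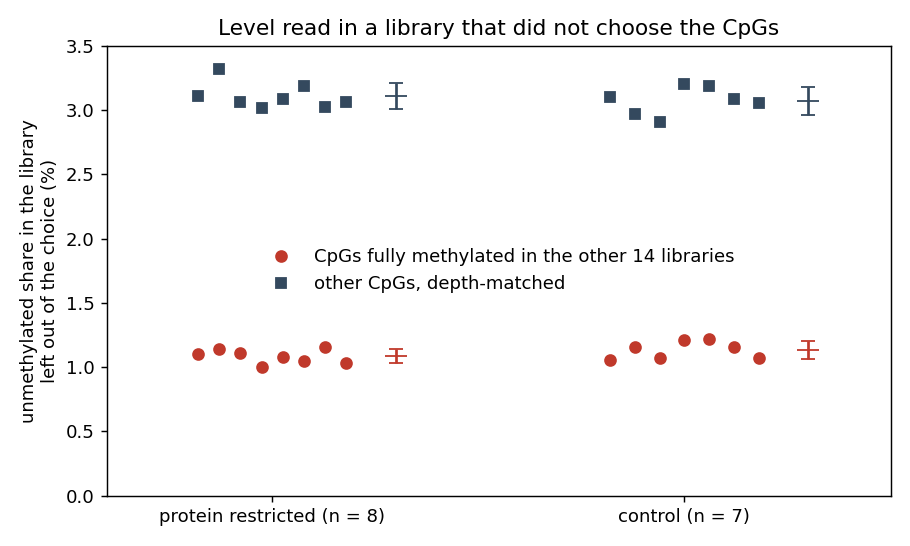
Points give, for each library, the percentage of unmethylated reads at CpGs fully methylated in the other 14 libraries (red circles) and at depth-matched other CpGs (blue squares), with protein restricted libraries left and control libraries right, and bars give mean ± SD. All red points lie between 1.005% and 1.22% and all blue points between 2.91% and 3.32%.

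The same held when a whole diet was left out of the choice. Of the 8667 CpGs fully methylated in all 7 control libraries, 854 were so in all 8 protein restricted libraries as well, or 9.85%, beside 5.18% of the depth-matched other CpGs. Averaged over CpGs, the unmethylated share of these 8667 in protein restricted libraries was 1.28% ± 0.0362, against 3.39% ± 0.0768 at depth-matched other CpGs (SD, n = 8 libraries each). The difference of -2.11 points was present in 8 of 8 libraries (exact two-sided sign-flip permutation p = 0.00781, the smallest that 8 libraries can give). Of the 6594 CpGs fully methylated in all 8 protein restricted libraries, 12.95% were so in all control libraries, beside 6.92% of the depth-matched other CpGs. There their unmethylated share was 1.26% ± 0.0539, against 3.27% ± 0.134 at the other CpGs (SD, n = 7 libraries each), a difference of -2.002 points in 7 of 7 libraries (exact sign-flip permutation p = 0.0156, the smallest for 7). The other CpGs are those with an unmethylated read in the choosing diet, low levels included, and all libraries read the same lists. The sign of these differences was therefore largely built into the comparison, and no conclusion is drawn from the p-values. The 2 lists have unequal numbers of libraries behind them, so their sizes are not compared.

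Fully methylated CpGs were spread over the whole genome and, being 0.418% of listed positions, seldom stood side by side. They lay in 637 of the 2597 windows of 1 Mb that hold a listed CpG, with 1 in each of 477 windows and at most 5 in any. All 19 autosomes and the X chromosome had some, and the Y chromosome, with 155 listed CpGs, had none, where depth alone would give 0.308. Relative to the number given by the depth classes, the autosomes ran from 0.602 on chromosome 18 (17 CpGs, interval 0.351 to 0.963) to 1.22 on chromosome 10 (57 CpGs, interval 0.923 to 1.58). The exact Poisson interval held 1 on 18 of 19 autosomes, chromosome 18 being the exception. Among 19 intervals at 95%, a single one that leaves out 1 is not unusual. The X chromosome had 9 fully methylated CpGs, 0.728 times the number from depth (interval 0.333 to 1.38).

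Runs of fully methylated CpGs were short. With gaps of at most 300 bp, 838 of the CpGs had no fully methylated CpG next to them among listed positions and 8 pairs were found, none longer. The pair with most reads, 857 in all, was in Evc2, which encodes a protein of the primary cilium that acts in hedgehog signalling (chromosome 5, 37358985 and 37359021). Next came pairs in Myo1h, an unconventional myosin gene, 6 bp across with 844 reads, and in Sun5, which encodes a nuclear envelope protein that joins sperm head and tail, 7 bp across with 756 reads. Pairs in Smarca2, an ATPase of chromatin remodelling, in Ldlrad3 and in the predicted gene Gm46899 had 660, 641 and 585 reads. CpGs a few bases apart share most of their reads, so a pair is close to a single measurement. Another fully methylated CpG within 100 bp was found for 3.51% of them and for 2.17% of depth-matched other CpGs.

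The CpGs were closer to other listed CpGs than depth-matched positions were. The median distance to the nearest listed CpG was 20 bp (95% interval of the median 17 to 22, which treats CpGs as independent), against 28 bp. It was shorter on 16 of 19 autosomes and longer on 3. Judged by 1 library at a time, the CpGs with no unmethylated read in that library were nearer to a listed CpG than its depth-matched others by 4 or 5 bp in the median, in all 15 libraries. The libraries read the same positions, so their sets overlap and these values are not independent. Within 10 bp 32.2% of the fully methylated CpGs had a listed neighbour, against 25.1% of depth-matched others. The median number of listed CpGs within 1 kb was 3 in both. Positions have no replicates, so these differences are described and not tested. Listed CpGs do not include every CpG of the genome, and distances to unlisted ones were not analysed here.

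They also lay within genes more often. Of the 854 CpGs 624, or 73.1%, were inside a RefSeq gene span (exact binomial 95% interval 70.0 to 76.0), against 64.8% of depth-matched other CpGs. The share was higher on 18 of 19 autosomes and lower on chromosome 17, with 62.2% against 70.2%. Protein coding genes held 65.3% against 57.2%. Taken library by library, the CpGs at which that library had no unmethylated read, whatever the others had, were inside genes more often than that library's depth-matched others. The difference was 8.11 ± 0.346 points in protein restricted libraries (SD, n = 8) and 8.05 ± 0.259 points in control libraries (SD, n = 7). The libraries read the same positions and their sets overlap, so these SDs are not a spread over independent sets of CpGs. The excess of 8.25 points in the CpGs fully methylated in all 15 was close to that of each single library, where about 41.3% to 53.9% of all listed CpGs met the rule.

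**Figure D4:**
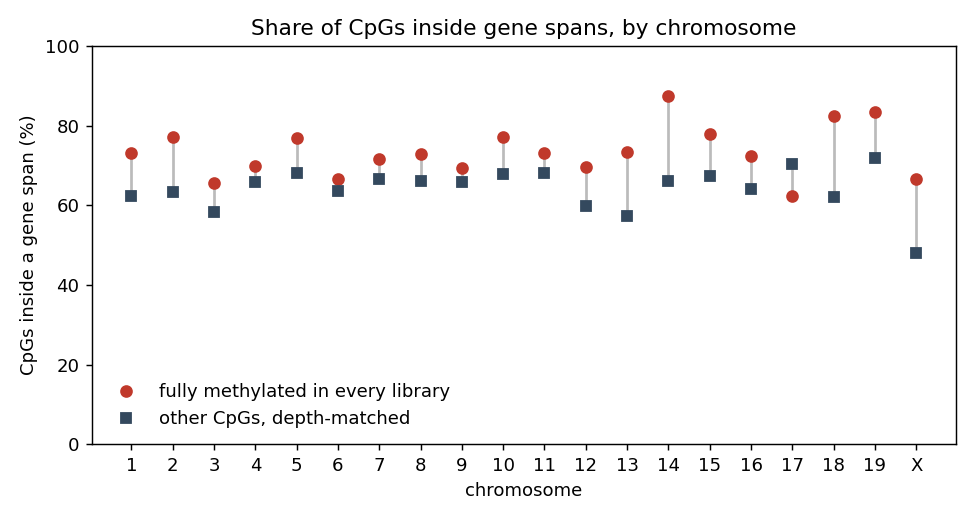
For each chromosome, points give the percentage of fully methylated CpGs (red circles) and of depth-matched other CpGs (blue squares) inside RefSeq gene spans, joined by a line. The red point is above the blue one on every autosome except chromosome 17 and on the X chromosome.

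Within genes, the share in the part nearest the start was lower. For 451 fully methylated CpGs inside protein coding genes whose direction is given by the promoter table, each gene was divided into 5 equal parts from start to end. The first part held 10.9% of them (exact binomial 95% interval 8.15 to 14.1), against 15.02% of depth-matched others. The next held 21.5% against 18.4%, and the last 26.8% against 25.1%. Other measures of gene ends did not differ beyond counting error. Within 1 kb of either gene end lay 7.26% (interval 5.61 to 9.21) against 8.17%, and in a promoter window 0.234%, which is 2 CpGs (interval 0.0284 to 0.843), against 0.357%. The median distance to the nearest RefSeq transcript start was 24851 bp against 24636 bp, with an interval of 22258 to 27695 bp for the first. Promoter sequences of chromosome 18 were not used here.

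**Figure D5:**
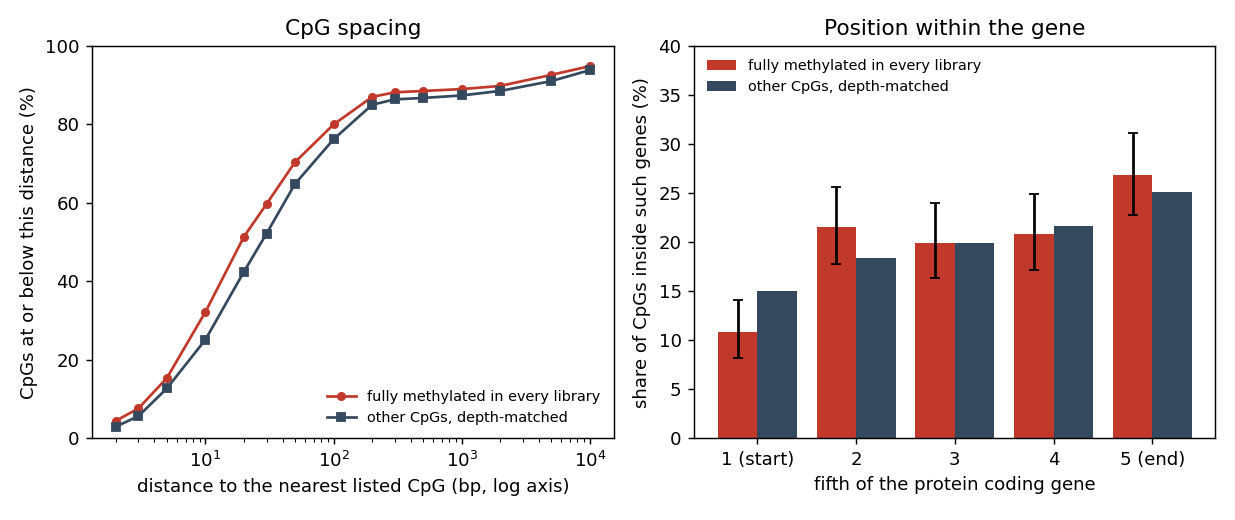
Left, the cumulative percentage of fully methylated CpGs (red) and of depth-matched other CpGs (blue) by distance to the nearest listed CpG, in bp on a log axis. Right, the percentage of CpGs within protein coding genes that lie in each of 5 equal parts of the gene from start to end, with exact binomial 95% intervals for the fully methylated CpGs, where the first part has 10.9% against 15.02%.

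At the level of single genes the CpGs were thinly spread. They fell in or within 2 kb of 600 genes, of 19644 genes with a listed CpG, and 556 of the 600 had exactly 1. No gene with at least 5 listed CpGs had all of them fully methylated. Fully methylated CpGs were 0.418% of all listed positions, so low counts per gene follow largely from their number. The counts of genes expected from depth were not computed. Fto, which encodes an RNA demethylase and whose variants are associated with body weight in humans, had the most, 4 of 105 listed CpGs, where depth alone gives 0.510. Fto was the highest of 19644 genes, so this is a description of the extreme. Its 4 CpGs, on chromosome 8 at 91330110, 91472421, 91515291 and 91521946, had 320, 425, 347 and 434 reads. At the first, reads ran from 15 to 28 in protein restricted libraries (median 20) and from 18 to 26 in control libraries (median 24). At the last, they ran from 12 to 48 in protein restricted libraries (median 29) and from 23 to 35 in control libraries (median 28), so the depths of the diets overlap. The mean level over all its listed CpGs was 97.4%.

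Evc2 had 3 of 15, Grik3, a kainate-type glutamate receptor subunit gene, 3 of 53, and Dock9, an exchange factor for the GTPase Cdc42, 3 of 65. At the Grik3 CpG at 125650046 of chromosome 4, reads ran from 22 to 40 in protein restricted libraries (median 32) and from 23 to 41 in control libraries (median 30). Exactly 2 were found at 40 genes, of which the 8 with the fewest listed CpGs are named. These were Gm46899 and Sun5, with 2 of 3 each, and Gm22271, a small nucleolar RNA gene whose 2 CpGs lie outside it within the span of Gm32257, with 2 of 4. Pdzd8, an endoplasmic reticulum protein gene, and Tarbp1, an RNA methyltransferase gene, had 2 of 5 each. Avpr1b, a vasopressin receptor gene, had 2 of 6, and BC048559 and Trim67 had 2 of 9 each. In these 11 genes the listed CpGs averaged between 97.8% and 99.8%.

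Gene families held few fully methylated CpGs each, and their ratios to the number given by depth had wide intervals. For all 20 families the exact Poisson interval of observed over depth-expected held 1, and 15 families had at least 1, which does not show that they match that number. The solute carriers counted, which move nutrients and ions across membranes, had 12 of 2299 listed CpGs, at 12 genes with 1 each, against 10.8 from depth. Slc22a13b, with 1 of 3 listed CpGs, was not in this count. Among the 12 genes counted were Slc38a2 and Slc38a4, both amino acid transporters, and Slc6a4, the serotonin transporter. The CpG in Slc38a4 is the same CpG that is shown above in the Gm32840 promoter window. The kinesins counted, which are microtubule motors, had 5 of 506 against 2.28, at Kif12, Kif9, Kif28, Kif5a and Kif3a (ratio 2.19, interval 0.711 to 5.11). Kifc1, also a kinesin gene, had 1 of 18 listed CpGs and was not in this count. Tripartite motif genes had 3 of 240 against 0.885 (ratio 3.39, interval 0.699 to 9.91), and zinc finger genes 5 of 1568 against 6.77.

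Collagens had 4 of 515 against 2.54, and cadherins and protocadherins 3 of 651 against 2.83, of which 2 were in Cdh13. Calcium channels had 3 of 536 against 2.96, with 2 in Cacna1c, the pore subunit of an L-type channel, and potassium channels 3 of 704 against 3.27. Axonemal dyneins, the motors of the sperm tail, had 2 of 410 against 2.15, at Dnah2 and Dnah8. Among genes of the methylation machinery the only one was in Tet3, which encodes an enzyme that oxidises methylcytosine in the zygote, 1 of 104 listed CpGs in the family against 0.650. Olfactory and vomeronasal receptors had 0 of 248 against 0.511, ribosomal protein genes 0 of 339 against 1.33, and the Hox, cytochrome P450 and Sox families also had none. With expected numbers this small, a count of 0 is within what depth gives.

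Other CpGs close by were also highly methylated and differed little between diets. The 1757 listed CpGs within 100 bp of a fully methylated CpG, and not fully methylated themselves, averaged 98.3% ± 0.112 in protein restricted libraries (SD, n = 8) and 98.3% ± 0.126 in control libraries (SD, n = 7). Protein restricted minus control was 0.0198 points, with a 95% interval of -0.114 to 0.152 (p = 0.747, exact permutation test, adjusted p also 0.747), and it was -0.00551 points without control replicate 1. Depth-matched CpGs farther away averaged 97.0% ± 0.0693 in protein restricted libraries (SD, n = 8) and 97.0% ± 0.131 in control libraries (SD, n = 7). Neighbours share reads with the CpGs that were chosen, in the libraries of both diets. Their higher level is therefore a description, and no conclusion on diet is drawn from their comparison.

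Each of the 203638 CpGs with an unmethylated read was also tested between diets with a quasi-binomial model of its counts. The test called 0 of the 1757 neighbours at an adjusted p under 0.05, as it called 0 of all CpGs tested (0%), and limma also called 0. At an unadjusted p under 0.05 there were 71 neighbours, or 4.04%, beside 3.81% of all CpGs tested, which is near the background, with 36 higher and 35 lower in protein restricted libraries, beside 1.9% higher and 1.91% lower of all CpGs. limma on percentages gave 78 neighbours at that threshold, beside 4.37% of all CpGs. Since neighbours share reads with the chosen CpGs, no conclusion on diet is drawn from these counts. The neighbour with the smallest p, outside genes on chromosome 9 (103964882), was at 96.4% ± 3.10 in protein restricted libraries (SD, n = 8) and at 100% in every control library, with an adjusted p of 1 in the quasi-binomial test.

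The depths at the fully methylated CpGs overlapped between the diets. Their mean total count divided by that of all listed CpGs was 0.560 ± 0.0675 in protein restricted libraries (SD, n = 8) and 0.546 ± 0.0593 in control libraries (SD, n = 7). The difference of 0.0132 had a 95% interval of -0.0584 to 0.0856 (p = 0.689, exact permutation test, adjusted p = 0.747). Without protein restricted replicate 6 the difference was -0.00415. The same read counts entered the choice of these CpGs in every library, so no conclusion on diet is drawn from this test. A ratio below 1 follows in part from the choice, since a deeper CpG is less likely to have no unmethylated read. The mean over all listed CpGs also includes very deep ones, up to a mean total count of 155236. With medians in place of means the ratio was 0.710 ± 0.0718 in protein restricted libraries (SD, n = 8) and 0.691 ± 0.0572 in control libraries (SD, n = 7).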

How the data were processed

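The authors deposited, for each of 15 libraries, the count of methylated reads and the count of all reads per CpG, without normalization. The submitters' processing notes name Bismark 0.7.12, Bowtie2 2.1.0 and mm10, with no roles. The sources used here do not give trimming or filters. All files list identical positions, and 691 of 691 that lie in RefSeq promoter windows are the C of a CG. Percent methylation is methylated over total counts.

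Depth classes are deciles of the mean total count, and other CpGs were weighted to the members' classes. Expected numbers were computed from the depths, without simulation. Diets were compared over libraries with exact two-sided permutation tests, whose smallest p is 0.000155. Single CpGs were tested with a quasi-binomial model (13 residual degrees of freedom, dispersion of at least 1, Benjamini-Hochberg at 0.05), with limma 3.58.1 as the alternative. The coverage minimum of 10 reads removed no CpG. The code was tested on simulated data. Python 3.11.15, numpy 2.4.6 and scipy 1.17.1 were used. Genes come from RefSeq (GRCm38.p6), with overlaps given to the smaller gene. The members and lists were chosen with earlier results of these data known. Named are 12 genes, the 4 with at least 3 members and 8 of the 40 with 2, taken by fewest listed CpGs, the 8 deepest and 4 shallowest members, the 6 best covered of the longest runs, promoter windows with members, and families with up to 3 leading genes. Slc38a2, Slc38a4, Slc6a4, Slc22a13b, Kif5a, Kif3a, Kifc1, Mir30a, the contrast window and the CpGs just outside the rule were named after their values were seen. Other settings are compared in the closing section.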

Additional observations from a re-analysis of the deposited data

Results flagged for a closer look

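Among 26 groups of libraries, 3 had 1 library set apart from the rest of its diet by a gap that took up most of the range, and each time it was control replicate 4. Chance gives about 1 in 20 groups. This library had read counts summing to 11841657, while those of the remaining control libraries summed to between 7846118 and 9333437. At the fully methylated CpG in Tmcc3 it had 83 reads, against 31 to 53, and at the one in Lrrc9 it had 67 reads, against 33 to 44. All 3 values are read depths, so they are not independent of each other.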

How the results depend on the processing

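The number of fully methylated CpGs depended most on how strictly the rule was read and on depth. It was 4028 with 1 unmethylated read allowed, 14624 after each CpG was thinned to 11 reads in each library, 845 on autosomes, and between 1066 and 1230 without any single library, which had to raise it. The ratio to the expected number was 9.46 at a level of 98%, and 0.0423 and 0.00699 at levels that leave 0.5% and 0.1% of reads unmethylated. The excess of CpGs within genes was 11.4 points without depth matching and between 7.26 and 9.58 points under the other 7 settings, of which 1 per 1 kb, thinning and protein coding genes only were chosen after seeing the data. The median distance to the nearest listed CpG was 8 bp shorter, 10 bp shorter without depth matching, and 4 or 5 bp shorter for CpGs judged by 1 library at a time. Between diets, the difference in left-out unmethylated reads was -0.0625 to -0.0353 points without single libraries (exact permutation p = 0.0763 to 0.285). The relative depth difference was -0.00415 to 0.0277 and that of neighbours -0.00551 to 0.0534 points without single libraries, and the neighbours' difference was -0.0143 points within 1000 bp. No diet comparison passed under any setting tried, but the choice of the CpGs bears on those of depth and of neighbours. With runs of consecutive title numbers averaged, 4 and 3 values remained and the p were 0.2, 0.6 and 0.657 (exact permutation tests). No paired analysis was possible because replicate numbers were given in accession order and pair nothing. At a median of 22.9 reads, a single CpG in a single library cannot tell 99% from 100%.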
